A study of Mus musculus with 6 samples.

Results

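Sterol and fatty acid synthesis was followed through 31 genes, chosen by name: 21 of the sterol branch, which leads from acetyl-CoA to cholesterol, and 10 of the fatty acid branch. All 31 were found among the 18303 genes of the table, and all 31 were among the 11939 genes tested, those whose mean reached 1 RPKM (reads per kilobase of transcript, scaled to library size). The RNA came from mouse embryonic fibroblasts (MEFs) of the strain CBA/CaJ X C57BL/6J on day 2 of reprogramming, all given a short hairpin RNA (shRNA) by transfection in iCD1 medium, and the labels do not say how reprogramming was induced. The control group held 2 libraries with shLuc, a hairpin against luciferase. The groups shEtnk1/2, shPcyt2 and shPebp1 held 1 library each, with hairpins against both ethanolamine kinases, against Pcyt2, the enzyme that makes CDP-ethanolamine, and against phosphatidylethanolamine-binding protein 1. The Etn-deprived group held 1 library, with shLuc in iCD1 medium lacking ethanolamine (Etn). The series addressed how the CDP-ethanolamine pathway, which uses Etn to make phosphatidylethanolamine, bears on early reprogramming. Cells with shPebp1 but no Etn, which the series text also names, were not analysed here.

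As background, sterol synthesis joins acetyl units into mevalonate, activates and condenses these into squalene and closes it to lanosterol, which is trimmed to cholesterol. Fatty acid synthesis carboxylates acetyl-CoA, builds palmitate from it, and then lengthens and desaturates the chains that go into phospholipids. Both branches are transcribed under the SREBP factors, encoded by Srebf1 and Srebf2, which are held in the endoplasmic reticulum by Scap and Insig proteins when sterols are plentiful and are cut free in the Golgi when they are not. In Drosophila, phosphatidylethanolamine rather than sterol restrains this cleavage.

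SREBP proteins bind sterol regulatory elements, usually beside sites for NF-Y, whose box reads CCAAT. RefSeq promoter windows (GRCm38.p6, 250 bases before to 50 after a start) were given for 24 of the 31 genes, 17 sterol and 7 fatty acid. The 250 bases before the start are shown for Hmgcs1, the member with a match to the element, and for Idi1 and Ebp, whose levels differed below. All are written 5′ to 3′ on the strand of the gene. The windows lie at chr13:119690101-119690350 (plus strand) for Hmgcs1, chr13:8885356-8885605 (plus strand) for Idi1 and chrX:8193513-8193762 (minus strand) for Ebp, and capitals mark CCAAT, its reverse complement ATTGG and, in Hmgcs1, TCACCCCAC.
Hmgcs1: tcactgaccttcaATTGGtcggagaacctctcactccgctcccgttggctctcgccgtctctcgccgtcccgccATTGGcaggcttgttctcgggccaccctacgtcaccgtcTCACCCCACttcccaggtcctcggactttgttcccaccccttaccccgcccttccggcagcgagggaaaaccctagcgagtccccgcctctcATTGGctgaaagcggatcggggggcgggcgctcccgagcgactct
Idi1: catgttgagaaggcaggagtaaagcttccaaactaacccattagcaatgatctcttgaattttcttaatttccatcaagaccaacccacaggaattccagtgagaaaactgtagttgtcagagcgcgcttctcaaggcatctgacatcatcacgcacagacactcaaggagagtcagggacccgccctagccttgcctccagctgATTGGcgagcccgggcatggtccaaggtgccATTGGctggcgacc
Ebp: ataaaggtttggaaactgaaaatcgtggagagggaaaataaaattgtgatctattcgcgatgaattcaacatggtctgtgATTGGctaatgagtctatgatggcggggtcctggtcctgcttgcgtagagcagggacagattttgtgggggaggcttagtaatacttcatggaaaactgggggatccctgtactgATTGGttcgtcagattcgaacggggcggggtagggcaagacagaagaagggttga

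The element core TCACNCCAC was sought on both strands, and matched 1 of 24 genes (4.17%), Hmgcs1, with its last base 129 bases before the start, against 1.43% of the 8963 genes tested that had a window. CCAAT matched 16 of 17 sterol genes (94.1%) and 4 of 7 fatty acid genes (57.1%), against 43.3% of genes tested. The GC box GGGCGG also matched 16 of 17 and 4 of 7, against 71.4% of genes tested. A gene counted when any of its windows held the letters, and matches of different motifs were allowed to overlap.

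The libraries held 18467583 to 20020465 reads in genes. The hairpin against the kinases left Etnk1 at 12.5 RPKM, 59.1% of the shLuc mean, while Etnk2 was near 0 in all libraries (0.333 to 1.0 RPKM). The hairpin against Pcyt2 left Pcyt2 at 72.9%. Without that hairpin Pcyt2 stood at 81.5% in Etn-deprived, 86.6% in shEtnk1/2 and 93.3% in shPebp1. Pebp1 was at 99.6 RPKM in shPebp1 and 100.7 in the library labelled shLuc replicate 2, against 210.5 to 263.4 in the other 4, so this library went against its label and results are also given without it. All 9 fibroblast markers were expressed, with summed levels of 9623.8 to 13096.8 RPKM, highest in shEtnk1/2. Of 8 adipocyte markers 3 were matched in the table (summed 0.5 to 4.64 RPKM), with Adipoq at 0 in 5 libraries. Macrophage markers (4 of 5 matched) summed to 5.48 to 7.7 RPKM, and endothelial markers (4 of 4) to 21.5 to 25.4, nearly all Tek. Of the hepatocyte markers Alb stood at 11.4 to 17.5 RPKM and Apoa1 at 0 to 0.0544. The part of these levels in the differences below was not tested. In bulk RNA, fewer cells of a type and less RNA per cell cannot be told apart.

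All 31 genes were well expressed, and most varied little. Mean levels ran from 19.5 to 165.3 RPKM in the sterol branch and from 19.4 to 492.5 RPKM in the fatty acid branch, and the ratio of the highest to the lowest library ran from 1.09 to 1.61 and from 1.08 to 1.27. The lowest read number behind any value was 440, for Pmvk in Etn-deprived. The highest sterol branch levels belonged to Fdps, which makes farnesyl diphosphate, and Hmgcs1, the cytosolic HMG-CoA synthase. Fdps stood at 157.7 and 161.2 RPKM in shLuc replicates 1 and 2, 171.3 in shEtnk1/2, 168.5 in shPcyt2, 161.6 in Etn-deprived and 171.7 in shPebp1. Hmgcs1 stood at 105.8 and 115.6 RPKM in shLuc, 120.3 in shEtnk1/2, 115.2 in shPcyt2, 121.2 in Etn-deprived and 120.0 in shPebp1. For both genes all treated libraries lay close to or above the shLuc pair, and neither passed the test in any comparison.

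**Figure D1:**
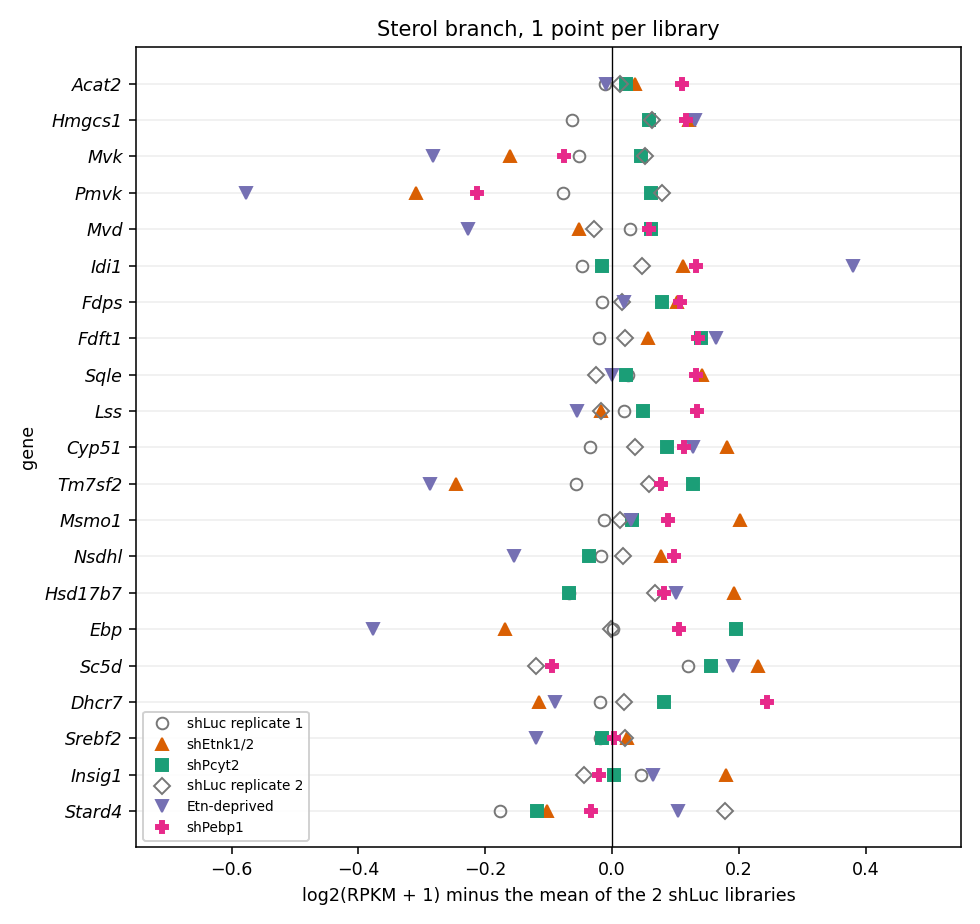
The 21 sterol branch genes by library, as log2(RPKM + 1) minus the mean of the 2 shLuc libraries, 1 point per library. Most points lie near 0, while Pmvk (-0.58), Ebp (-0.38) and Idi1 (0.38) stand furthest out in Etn-deprived.

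In the 1 library from medium without Etn, 3 members of the sterol branch were called different from shLuc, in both directions. Idi1, which isomerises isopentenyl diphosphate, was higher. Pmvk, the phosphomevalonate kinase that acts before it, and Ebp, the sterol isomerase late in cholesterol synthesis, were lower. None of these calls held with the trends of length and GC content removed, as given below. Levels were compared with shLuc by limma on log2(RPKM + 1), a scale that understates fold changes of low genes, with Benjamini-Hochberg adjustment over all 11939 genes and a threshold of 0.05. Called higher was 1 of 31 members, against 0.586% of all genes tested, and called lower were 2 of 31, against 3.22% (in either direction, 3 against 3.8%). At an unadjusted p under 0.05 stood 9 members (29.0%, against 19.9%), and limma with voom weights on reads recovered from the RPKM values called 5, against 5.86% of all genes. Each treated group held 1 library, which was assumed to vary as the shLuc pair did. The labels do not state whether the pair came from separate cultures, so the p-values rest on a spread between libraries that may be technical. Replicate 2 also went against its label in Pebp1 (above), so whether both libraries are controls is not known. That bears on every shLuc mean, SD and p-value given here.

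Idi1 (chromosome 13, 8885606 to 8892396, plus strand, mm10) stood at 62.4 and 66.7 RPKM in shLuc (64.6 ± 3.04, SD, n = 2), 69.8 in shEtnk1/2, 63.8 in shPcyt2, 84.2 in Etn-deprived and 70.8 in shPebp1. Etn-deprived was the highest of the 6 libraries, and its 95% Poisson interval, which covers counting error only, was 81.7 to 86.7 RPKM. The difference from shLuc was 0.38 on the log2 scale (SE 0.07, limma, adjusted p = 0.0235), or 0.43 against replicate 1 alone.

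Pmvk (chromosome 3, 89459118 to 89469009, plus strand) stood at 22.6 and 25.3 RPKM in shLuc (24.0 ± 1.9, SD, n = 2), 19.1 in shEtnk1/2, 25.0 in shPcyt2, 15.7 in Etn-deprived and 20.5 in shPebp1. Etn-deprived was the lowest library, with a Poisson interval of 14.3 to 17.2 RPKM, and shEtnk1/2 the next. Its difference in Etn-deprived was -0.58 (SE 0.1, limma, adjusted p = 0.0118), or -0.50 against replicate 1 alone. On the log2(RPKM + 1) scale Pmvk was at least 1.3-fold below both shLuc libraries in Etn-deprived, as were 3.17% of all genes tested, and Ebp (below) came closest to that size without reaching it. No member passed it upward in Etn-deprived (1.06% of all genes did) or in either direction in shEtnk1/2 (1.52% up, 3.22% down), shPcyt2 (0.519% and 0.595%) or shPebp1 (0.469% and 1.06%).

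Ebp (chromosome X, 8185331 to 8193512, minus strand) stood at 39.3 and 39.2 RPKM in shLuc (39.3 ± 0.09, SD, n = 2), 34.8 in shEtnk1/2, 45.1 in shPcyt2, 30.0 in Etn-deprived and 42.3 in shPebp1. The shLuc pair was closest here, Etn-deprived lay lowest and shPcyt2 highest. The difference in Etn-deprived was -0.38 (SE 0.08, limma, adjusted p = 0.0272), and it was -0.38 against replicate 1 alone. None of the 3 calls held when genes of low level were kept in, a fit that called 0.0% of all genes. None held when the trend with transcript length, or with length and GC content, was removed, which left 0.946% and 0.517% of all genes called. Log2 differences after the last were 0.26 for Idi1, -0.43 for Pmvk and -0.32 for Ebp (limma, adjusted p of 0.181, 0.131 and 0.13). The calls were also lost with either shLuc library left out. There the spread came from differences between other treatments, so that fit cannot show whether a call holds. Ebp also missed the threshold with median-ratio scaling (-0.36, limma, adjusted p = 0.0536).

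**Figure D2:**
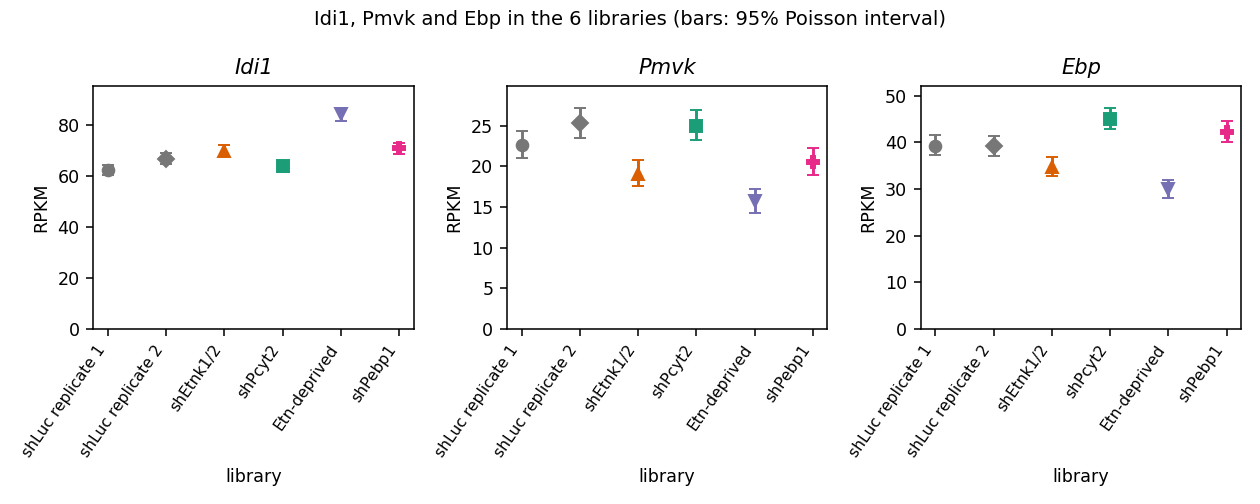
Idi1, Pmvk and Ebp in RPKM in each of the 6 libraries, with 95% Poisson intervals as bars (counting error only). In Etn-deprived, Idi1 is highest at 84.2, Pmvk lowest at 15.7 and Ebp lowest at 30.0.

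Neighbouring steps in Etn-deprived missed the threshold. Mvk and Mvd, the kinase before Pmvk and the decarboxylase after it, differed by -0.28 (limma, adjusted p = 0.0948) and -0.23 (0.149). Tm7sf2, a sterol reductase, differed by -0.29 (limma, adjusted p = 0.133), and Fdft1, squalene synthase, by 0.16 (0.25). Levels of the other sterol enzymes ranged over all libraries from 18.3 (Hsd17b7) to 97.1 RPKM (Msmo1), and none of them was called.

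Among the regulators, Srebf2, the factor of the sterol genes, was at 83.1 and 85.4 RPKM in shLuc, 85.6 in shEtnk1/2, 83.3 in shPcyt2, 77.4 in Etn-deprived and 84.4 in shPebp1. Insig1, an SREBP target that retains the factors, was at 50.2 and 47.1 RPKM in shLuc, 55.2 in shEtnk1/2, 48.7 in shPcyt2, 50.9 in Etn-deprived and 47.9 in shPebp1. Srebf2 was lowest in Etn-deprived and Insig1 highest in shEtnk1/2, and neither was called. Srebf1, the factor more often tied to fatty acid genes, was at 57.3 and 55.2 RPKM in shLuc, 48.2 in shEtnk1/2, 54.9 in shPcyt2, 51.2 in Etn-deprived and 55.5 in shPebp1. It lay below the shLuc pair in shEtnk1/2, by -0.22 (SE 0.07, limma, adjusted p = 0.144). The deposited position of Srebf1 spans 1449 bases, less than the 4299 nt its values imply.

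The shLuc libraries themselves differed most in Stard4, a sterol carrier, and Sc5d, the lathosterol desaturase. Stard4 was at 18.0 and 23.3 RPKM in shLuc, 19.0 in shEtnk1/2, 18.8 in shPcyt2, 22.1 in Etn-deprived and 20.0 in shPebp1. Sc5d was at 34.4 and 29.0 RPKM in shLuc, 37.2 in shEtnk1/2, 35.3 in shPcyt2, 36.2 in Etn-deprived and 29.5 in shPebp1. All 4 treated libraries lay within the shLuc pair for Stard4. For Sc5d the 3 pathway libraries lay above both shLuc libraries, and shPebp1 lay near the library labelled shLuc replicate 2. Between the 2 shLuc libraries, 22 of 31 members were higher in replicate 2, against 51.1% of all genes.

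None of the 10 fatty acid branch genes was called by the main limma fit on log2(RPKM + 1) in any comparison. Voom called 3 of them, described below, of which Fads2 was also called with the trends of length and GC content removed. The stearoyl-CoA desaturases, which put the first double bond into saturated chains, were the most abundant. Scd2 was at 461.4 and 527.2 RPKM in shLuc, 495.1 in shEtnk1/2, 486.6 in shPcyt2, 456.6 in Etn-deprived and 528.0 in shPebp1. Scd1 was at 120.7 and 130.0 RPKM in shLuc, 117.8 in shEtnk1/2, 121.6 in shPcyt2, 122.3 in Etn-deprived and 134.7 in shPebp1. For both genes shPebp1 was highest, and the treated libraries otherwise lay near or within the range of the shLuc pair. The paralogs Scd1 and Scd2 may share reads, and the handling of such reads is not given in the sources used here.

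Me1, the malic enzyme that supplies NADPH, was at 36.4 and 33.7 RPKM in shLuc, 41.4 in shEtnk1/2, 39.1 in shPcyt2, 42.6 in Etn-deprived and 35.6 in shPebp1. The 3 pathway libraries lay above both shLuc libraries, and shPebp1 between them. In Etn-deprived Me1 differed by 0.27 (limma, adjusted p = 0.106), and Elovl6, which elongates palmitate, by 0.26 (0.115). The voom fit called both, at adjusted p of 0.0261 and 0.0232. Fads2, the delta-6 desaturase of polyunsaturated fatty acids, stood at 125.8 RPKM in shEtnk1/2 against 106.6 and 104.9 in shLuc, a difference of 0.25 (SE 0.07, limma, adjusted p = 0.0747). Its values were 117.5 in shPcyt2, 115.2 in Etn-deprived and 109.7 RPKM in shPebp1, so every treated library lay above the pair. Acly, Acaca, Fasn and Fads1, which make acetyl-CoA, malonyl-CoA, palmitate and delta-5 desaturated chains, ranged by library from 87.9 to 97.8, 18.4 to 21.1, 55.6 to 65.9 and 116.1 to 125.9 RPKM.

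**Figure D3:**
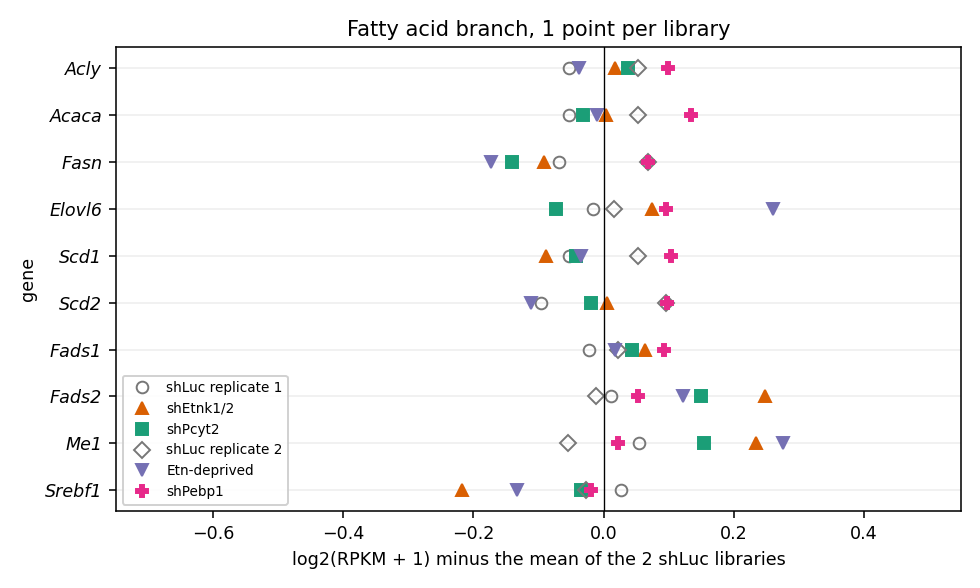
The 10 fatty acid branch genes by library, as log2(RPKM + 1) minus the mean of the 2 shLuc libraries, 1 point per library. Fads2 lies furthest right in shEtnk1/2 (0.25) and Me1 (0.27) and Elovl6 (0.26) in Etn-deprived.

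Knockdown of the ethanolamine kinases gave 0 of 31 calls by the main limma fit, against 3.46% of all genes tested (1.09% higher and 2.37% lower). At an unadjusted p under 0.05 there were 8 members (25.8%), against 19.1% of all genes. These were Fads2, Me1, Msmo1, Cyp51 and Insig1 on the higher side and Pmvk, Tm7sf2 and Srebf1 on the lower side. Voom called 1, Fads2 (limma-voom, adjusted p = 0.0364), against 6.62% of all genes. Fads2 was also called with the length trend removed (0.33, limma, adjusted p = 0.0462) and with length and GC content removed (0.33, limma, adjusted p = 0.046). Those fits called 1.92% and 1.63% of all genes. In the shEtnk1/2 library the summed fibroblast markers were highest, and their part was not tested.

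The shPcyt2 library gave 0 calls by limma, against 0.109% of all genes, and 2 members, Fads2 and Ebp, at an unadjusted p under 0.05 (6.45%, against 5.97%). The shPebp1 library also gave 0, against 0.101% of all genes, and 1 member, Dhcr7, a late reductase of cholesterol synthesis, at an unadjusted p under 0.05 (3.23%, against 5.85%). Dhcr7 was at 48.9 RPKM there and 40.6 and 41.7 in shLuc, a difference of 0.24 (SE 0.08, limma, adjusted p = 0.643). Voom called 0 members in both, against 0.31% and 0.109% of all genes. With shEtnk1/2, shPcyt2 and Etn-deprived taken as 1 group of 3 against shLuc, limma called 0 members and 0.0% of all genes. Me1 (0.22, adjusted p = 0.812) and Fads2 (0.17, adjusted p = 0.812) had an unadjusted p under 0.05, as did 6.06% of all genes, and voom called 0 members and 0.0% of all genes.

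In sums the branches moved little. Summed sterol branch levels were 1187.5 and 1218.9 RPKM in shLuc, 1259.7 in shEtnk1/2, 1243.9 in shPcyt2, 1208.0 in Etn-deprived and 1274.7 in shPebp1. Summed fatty acid branch levels were 1094.5 and 1181.8 RPKM in shLuc, 1153.8 in shEtnk1/2, 1139.0 in shPcyt2, 1107.0 in Etn-deprived and 1206.5 in shPebp1. In shPebp1 both sums were the highest of the 6 libraries. For the sterol branch shEtnk1/2 and shPcyt2 also lay above both shLuc libraries, and Etn-deprived lay between them. For the fatty acid branch the other treated libraries lay inside the shLuc range. To those 2 shLuc sums Scd2 alone gave 461.4 and 527.2 RPKM.

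The median log2 difference from shLuc was 0.10 in each branch for shPebp1, against 0.01 over all genes, and 22 members lay above both shLuc libraries (71.0%, against 36.6% of all genes) and 2 below both (6.45%, against 31.7%). Against shLuc replicate 1 alone the medians were 0.12 for the sterol and 0.13 for the fatty acid branch. In shEtnk1/2 the medians were 0.06 and 0.01, against -0.06 over all genes, with 17 members above both (54.8%, against 25.0%) and 10 below both (32.3%, against 51.9%). In shPcyt2 they were 0.05 and -0.03, against -0.02, with 14 above both (45.2%, against 29.0%) and 4 below both (12.9%, against 39.4%). In Etn-deprived they were 0.00 and -0.02, against -0.01, with 12 above both (38.7%, against 36.0%) and 12 below both (38.7%, against 41.9%). These comparisons share their shLuc libraries, and replicate 2 lay above replicate 1 by a median of 0.04 in the sterol and 0.08 in the fatty acid branch.

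**Figure D4:**
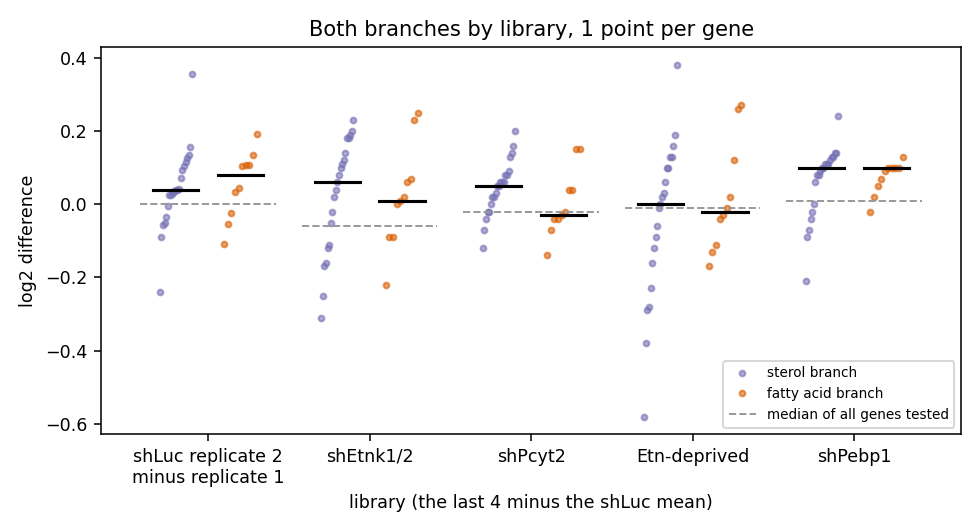
Log2 differences of the 31 genes by library and branch, 1 point per gene with the branch median, the 4 treated libraries against the shLuc mean and the 2 shLuc libraries against each other. The shPebp1 medians are 0.10 in both branches, and Etn-deprived has the widest spread (-0.58 to 0.38).

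Differences between treatments were tested in the same model for all 6 pairs, each adjusted over all genes tested but not over pairs. Each side held 1 library, and the only spread was that between the shLuc libraries, 1 of which went against its label. These contrasts reuse the Etn-deprived library and are no independent support for the differences from shLuc. Between shPcyt2 and Etn-deprived 3 members were called, against 3.22% of all genes (2.73% higher in shPcyt2 and 0.494% lower). Ebp was higher in shPcyt2 by 0.57 (SE 0.09, limma, adjusted p = 0.0069), Pmvk by 0.64 (SE 0.11, adjusted p = 0.0143), and Idi1 was lower, at -0.39 (SE 0.09, adjusted p = 0.0385). Ebp was also lower in Etn-deprived than in shPebp1, at -0.48 (SE 0.09, limma, adjusted p = 0.0363), against 1.22% of genes called. All 4 of these calls were lost with no filter on low values (adjusted p from 0.271 to 0.317) and with the trends of length and GC content removed (adjusted p from 0.0664 to 0.285). The share of all genes called in these 2 alternatives was not counted for pairs. Against shLuc, the fit with no filter called 0.0% of all genes in Etn-deprived, so its losses cannot tell these genes from others. At an unadjusted p under 0.05 stood 7 members between shPcyt2 and Etn-deprived (22.6%, against 19.4% of all genes). Between Etn-deprived and shPebp1 there were 10 (32.3%, against 15.3%). Between shEtnk1/2 and Etn-deprived none was called by limma, against 0.854% of all genes, and 4 members had an unadjusted p under 0.05 (14.4% of all genes). For this pair Idi1 differed by -0.27 (adjusted p = 0.201), Pmvk by 0.27 (0.32) and Ebp by 0.21 (0.331). The remaining 3 pairs also gave 0 calls by limma, against 0.921% (shEtnk1/2 and shPcyt2), 2.72% (shEtnk1/2 and shPebp1) and 0.168% (shPcyt2 and shPebp1), with 4, 9 and 1 members at an unadjusted p under 0.05 (12.9%, 18.7% and 10.1% of all genes). Voom called 0 members between shEtnk1/2 and Etn-deprived and 1 in the remaining 3 pairs, Dhcr7, lower in shEtnk1/2 than in shPebp1 (-0.37, limma-voom, adjusted p = 0.00868). The share of all genes called by voom was not counted for pairs, so these counts have no background.

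Differences in Etn-deprived ran with the base composition of the transcripts. Idi1 had the lowest GC content of the 31 transcripts, 41.9%, and Mvk (59.6%), Mvd (59.0%), Pmvk (57.0%) and Tm7sf2 (56.4%) were among the higher ones, with Ebp at 50.9%. Srebf1 (58.4%), Srebf2 (57.9%) and Fasn (57.9%) were also among the higher ones, with smaller differences of -0.13, -0.12 and -0.17. Across the 31 genes, Spearman's rho between the Etn-deprived difference and GC content was -0.74, and across all genes tested with a GC value it was -0.5. With transcript length rho was 0.23 and 0.26. These are descriptions across genes of 1 library, which share its depth and preparation and are not independent replicates. The part of GC content in the differences was not tested beyond the fit with the trend removed. In shEtnk1/2 rho with GC was -0.58 over members and -0.18 over all genes, and in shPcyt2 rho with length was -0.59 and -0.24.

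**Figure D5:**
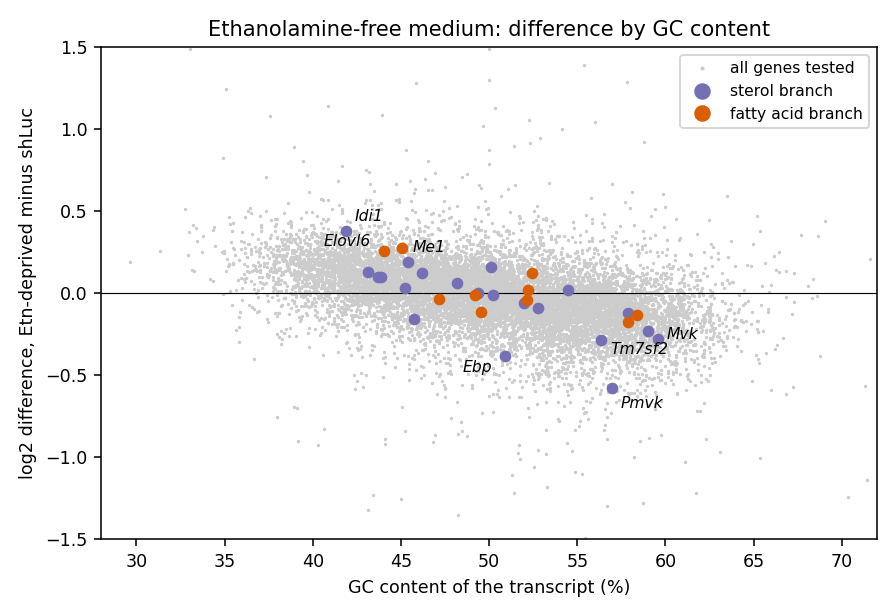
Log2 difference of Etn-deprived from shLuc against the GC content of the transcript, with members of both branches drawn over the 11407 genes tested that had a GC value, 20 of which lie outside the axes. Idi1 stands high at 41.9% GC and Pmvk low at 57.0%, and the cloud of all genes slopes downward (rho -0.5).

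Genes around the pathway moved in few places. Of 10 tested genes of other sterol and isoprenoid synthesis none was called by limma in a comparison with shLuc. Those comparisons called 0.0% to 3.8% of all genes. Pdss2, which makes the side chain of ubiquinone, was at least 1.3-fold below both shLuc libraries in Etn-deprived (-0.47, limma, adjusted p = 0.0869). The SREBP processing list (7 tested, with Scap and the cleaving proteases Mbtps1 and Mbtps2) held no call, nor did 12 tested genes of fatty acid oxidation.

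Over all genes tested, limma called 3.22% lower in Etn-deprived and 2.37% lower in shEtnk1/2, the background for the counts that follow. Of 12 sterol uptake and trafficking genes 1 fell, Stard3, a late endosomal sterol carrier, at 10.6 RPKM in Etn-deprived against 15.5 and 14.2 in shLuc (-0.45, SE 0.1, limma, adjusted p = 0.0425). Of 5 tested genes of the LXR group, sterol-sensing receptors and their targets, 2 fell in Etn-deprived. Apoe, the lipid carrier, was at 24.0 RPKM against 33.4 and 32.3 (-0.44, SE 0.08, limma, adjusted p = 0.0177), and Nr1h2, which encodes LXR beta, at 27.3 against 36.1 and 35.5 (-0.38, SE 0.08, adjusted p = 0.0318). Abca1, the cholesterol exporter and an LXR target, fell in shEtnk1/2, at 10.2 RPKM against 14.3 and 15.0 (-0.48, SE 0.1, limma, adjusted p = 0.0317), while Etn-deprived stood at 15.8. Of 17 tested genes of other fatty acid synthesis, elongation and activation 1 fell, Tecr, the reductase of the elongation cycle, at 116.5 RPKM in Etn-deprived against 151.5 and 150.0 (-0.37, SE 0.06, limma, adjusted p = 0.0129). Of the 8 alternative fits for each of these 5 calls, 2 or 3 also called the gene, and with the trends of length and GC content removed none was called (adjusted p from 0.0715 to 0.311). The log2 difference after that removal was -0.44 for Abca1, -0.31 for Stard3, -0.25 for Apoe, -0.21 for Nr1h2 and -0.20 for Tecr.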

How the data were processed

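Poly(A) RNA of 6 libraries in 5 groups was sequenced as paired ends, per the labels' protocols. The authors deposited 1 RPKM value per gene and library. Per the submitters' processing notes, Bowtie 0.12.2 and mm10 were used. Which counting program and gene models made the values, and whether strand was used, is not given in the sources used here. For all 18303 genes the RPKM values gave whole reads (within 1e-05 reads plus a relative 5e-09), from which transcript lengths and 95% Poisson intervals were computed. Genes whose mean over the libraries reached 1 RPKM were tested on log2(RPKM + 1) by limma 3.58.1 (R 4.3.3; trended, robust empirical Bayes; two-sided; Benjamini-Hochberg adjustment), in a model of 5 group means where residual and prior degrees of freedom were 1 and 9.24 (3 and 6.37 in the pathway fit). The main limma fit was tested on simulated counts with no length or GC trend. Their changes were larger than those of Idi1, Pmvk and Ebp, and their spread between libraries was small and fixed. The alternative fits and the contrasts between treated libraries were not tested on simulated counts.

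GC content came from GENCODE M21 transcripts for 94.8% of symbols and all 31 members. Alternatives were a pseudocount of 0.1, no filter on low values, median-ratio scaling, limma-voom on recovered reads, removal of the trend with length or with length and GC content (loess, span 0.4), and leaving out each library of a comparison that had others in its group. Where a shLuc library was left out, the spread came from the other pathway libraries. The removal of length and GC together, and the alternatives for pairs of treated libraries, were chosen after seeing the data. Named genes were members called or past the 1.3-fold size rule, the regulators, Scd1 and Scd2, the 2 highest of each branch, the 3 members in each direction that differed most between the shLuc libraries, and, outside the members, genes called or past the size rule; some other genes the rule names are not reported here. Elovl6, Dhcr7, Fads2, Fdft1, Mvk, Mvd, Tm7sf2 and some others were named after their values were seen. The members and lists were chosen with earlier results of these data known.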

Additional observations from a re-analysis of the deposited data

How the results depend on the processing

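Members called in Etn-deprived, 3 in the fit reported above (3.8% of all genes), came to 5 with voom (5.86%). With median-ratio scaling (2.1%) they came to 2, with Ebp lost. They came to 0 with no filter on low values (0.0%), with the length trend removed (0.946%) and with the length and GC trends removed (0.517%). The calls were also lost when either shLuc library was left out, a fit whose spread came from differences between other treatments. The log2 differences of Idi1, Pmvk and Ebp were 0.38, -0.58 and -0.38 with no filter and 0.39, -0.51 and -0.33 with length removed. Between shPcyt2 and Etn-deprived, 3 calls became 0 with no filter, 1 (Ebp) with length removed and 0 with length and GC removed. For this pair voom also called Elovl6, lower in shPcyt2 (-0.34, limma-voom, adjusted p = 0.00943). Median-ratio scaling lost Idi1 (limma, adjusted p = 0.0594). Between Etn-deprived and shPebp1, 1 became 2 with voom and 0 with no filter, with median-ratio scaling, with length removed and with length and GC removed. Between shEtnk1/2 and shPebp1, 0 became 1 with voom. These fits of pairs were added after seeing the data, and leaving out a shLuc library was not run for them. Shares of all genes called were not counted for them, so these counts have no background. In shEtnk1/2 against shLuc, 0 became 1 (Fads2) with voom, with the length trend removed and with the length and GC trends removed. Those fits called 6.62%, 1.92% and 1.63% of all genes. No member was called in the other comparisons with shLuc under any alternative run. With no filter, limma called no gene at all in shEtnk1/2 and Etn-deprived, and with length and GC removed it called 0.517% of all genes in Etn-deprived. The sterol median in shEtnk1/2 (0.06) was 0.12 with median-ratio scaling, 0.10 with the length trend removed and 0.11 with length and GC removed, and 0.04 to 0.08 without either shLuc library. The fatty acid median there (0.01) was 0.08 with median-ratio scaling and 0.07 with length and GC removed, and -0.04 to 0.08 without either shLuc library. In shPcyt2 the fatty acid median (-0.03) was 0.03 with the length trend removed and -0.05 to 0.04 without either shLuc library. In Etn-deprived the sterol median (0.00) was 0.03 with the length trend removed. For the pathway libraries together the sterol median (0.02) was 0.05 with median-ratio scaling, 0.05 with length removed and 0.04 with length and GC removed, and the fatty acid median (0.00) ranged from -0.06 to 0.06 when 1 library was left out. Of the values for single members, 632 kept their direction and side of the threshold, 50 moved, 16 lost the threshold and 5 gained it. Some small differences changed sign. Pmvk in shPcyt2 went from 0.06 to -0.02 without shLuc replicate 1. Ebp in the pathway libraries went from -0.12 to 0.01 without Etn-deprived. The causes of these shifts were not tested. The shLuc libraries differed from each other by medians of 0.04 and 0.08, as large as most of these medians. With 1 library per treated group there is no replicate check of any treatment. No paired analysis was possible because the treated groups hold 1 library each and share no second replicate number with shLuc.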
